A study of Mus musculus with 20 samples.

Results

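Tight junctions seal the space between neighbouring epithelial cells, and the polarity complexes set where in the cell those junctions form. The genes described here are 32 mouse tight junction and polarity genes, given as a list and found in the count tables through their Ensembl identifiers. All 32 of the 32 were present among 45318 gene IDs. They comprise 13 claudins, the occludin-type proteins Ocln, Marveld2 and Marveld3, the tricellular proteins Lsr and Ildr1, 4 immunoglobulin-like adhesion proteins, 6 plaque scaffolds and 4 polarity proteins. Of the 32, 31 passed the filter on low counts, and Cldn11 did not (0 to 0.15 counts scaled to the library size, CPM, in every library).

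The 20 libraries were polyadenylated RNA from mice of the FVB strain. MMTV-PyMT mice express the polyoma middle T antigen from the MMTV promoter, which is active mainly in mammary epithelium. MMTV-Neu-NDL mice carry an activated form of the receptor tyrosine kinase Neu (ErbB2) behind the same promoter, and in MMTV-Cre;Flox-Neo-Neu-NT mice (Neu-NT below) Cre from the MMTV promoter switches on an activated Neu allele. The groups were PyMT organoids after 6 days of culture in 2 sets, titled day 6 (n = 3) and untitled by day (called undated, n = 2), Neu-NDL organoids after 6 days (n = 3), PyMT organoids taken directly after preparation (day 0, n = 3), PyMT tumor sections (n = 3), Neu-NT tumor sections (n = 3) and wild-type (WT) mammary gland organoids after 6 days (n = 3). PyMT organoids grew in matrigel with FGF2, and tumor RNA came from a 30 µm frozen section. No ages are given, and nothing in the labels states that replicates came from separate animals, so p-values measure the spread between these libraries, which may be technical. WT organoids, sections and organoids of each model also differ in the cells they hold, and in bulk RNA fewer cells of a type and less RNA per cell cannot be told apart.

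Claudins span the membrane and bind across the gap between cells. Some, such as Cldn1, Cldn3, Cldn4 and Cldn7, mostly seal, whereas Cldn2 and Cldn10 form pores for ions. Occludin and the junctional adhesion molecules accompany them, zonula occludens proteins (Tjp1, Tjp3), cingulin and its relative Cgnl1 tie them to actin, and the Par and Crumbs complexes (Pard3, Pard6b, Patj, Crb3) set the apical border. In the mammary gland these junctions are known for their closure around the onset of lactation.

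Of the 5 genes called in Neu-NT sections against WT organoids below, 4 had a single promoter window in the RefSeq table, and these are shown because the calls below rest on these genes. Cldn7 had 2 windows, 1 with no match to the motif below and 1 with 2 matches. Each window holds 250 bases before and 50 after a RefSeq start site (GRCm38.p6) and reads 5′ to 3′ on the gene's strand, and the capitals mark the E-box CAGGTG or its reverse complement CACCTG, the motif bound by Snail and Zeb repressors. Cldn6 is at chr17:23679115-23679414 (plus strand), Cldn3 at chr5:134985964-134986263 (plus), Cldn4 at chr5:134946885-134947184 (minus) and Pard6b at chr2:168080754-168081053 (plus).
Cldn6: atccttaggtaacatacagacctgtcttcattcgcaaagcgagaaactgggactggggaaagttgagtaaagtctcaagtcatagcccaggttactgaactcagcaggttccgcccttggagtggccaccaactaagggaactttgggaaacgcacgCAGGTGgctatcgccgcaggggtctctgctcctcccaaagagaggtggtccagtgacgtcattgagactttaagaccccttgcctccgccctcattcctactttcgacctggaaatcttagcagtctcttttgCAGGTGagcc
Cldn3: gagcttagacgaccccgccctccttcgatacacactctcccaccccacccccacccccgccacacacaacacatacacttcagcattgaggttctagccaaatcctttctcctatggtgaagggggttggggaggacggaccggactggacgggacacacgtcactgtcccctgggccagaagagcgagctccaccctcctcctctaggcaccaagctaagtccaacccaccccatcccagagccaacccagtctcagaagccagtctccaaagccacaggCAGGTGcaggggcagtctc
Cldn4: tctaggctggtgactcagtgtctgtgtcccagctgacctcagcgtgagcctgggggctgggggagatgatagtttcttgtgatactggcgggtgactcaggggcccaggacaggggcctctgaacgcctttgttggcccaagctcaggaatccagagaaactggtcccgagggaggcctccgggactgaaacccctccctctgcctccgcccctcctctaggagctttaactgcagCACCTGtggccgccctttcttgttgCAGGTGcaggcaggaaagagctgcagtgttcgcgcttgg
Pard6b: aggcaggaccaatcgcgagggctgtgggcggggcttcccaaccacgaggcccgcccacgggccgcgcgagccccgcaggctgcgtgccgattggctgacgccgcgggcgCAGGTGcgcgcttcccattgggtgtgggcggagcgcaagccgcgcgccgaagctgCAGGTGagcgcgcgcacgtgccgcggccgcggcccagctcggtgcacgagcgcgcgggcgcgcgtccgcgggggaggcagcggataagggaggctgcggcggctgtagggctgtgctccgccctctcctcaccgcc
The window of Cldn6 held E-boxes starting at positions -93 and 41 from the start site, counted with the start as position 1. That of Cldn3 held 1 at position 32, that of Cldn4 held 2 at -14 and 12, and that of Pard6b held 2 at -141 and -86. On both strands, 19 of 37 windows of these genes (51.4%; 25 of the 32 genes had a window, and 15 of the 25 held a match) contained the motif, against 20.2% of the 32851 windows of all genes. The motif AACCNGTT, bound by Grainyhead-like factors, was in 1 of 37 windows (2.7%; Cgn) and in 2.09% of all windows. Windows of the same gene can overlap, and a match is a description of the letters only.

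Transcript levels per length (TPM, length-scaled from exon lengths) were led in WT organoids by Cldn3 (346.9 ± 39.2 TPM, SD, n = 3), the adhesion molecule F11r (JAM-A; 296.6 ± 5.51), Cldn7 (198.7 ± 32.2), Cgnl1 (188.4 ± 22.5) and Cldn4 (114.6 ± 11.9). Cldn7 and Cgnl1 did not differ beyond their spread. Next came Cxadr, a homophilic adhesion receptor (84.6 ± 12.0), Cldn1 (77.2 ± 8.45) and Lsr, which marks tricellular corners (68.4 ± 12.0), which lie within each other's spread. At the low end stood Cldn6 (11.1 ± 1.55), Jam2 (3.97 ± 0.625), Jam3 (2.38 ± 0.606), Cldn15 (0.798 ± 0.143), Cldn9 (0.112 ± 0.013) and Cldn11 (0.056 ± 0.018).

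The genes differed widely in how much they varied over the 20 libraries. Ranges here are of log2 CPM with a prior count of 2, which narrows them for genes with few counts. On that scale the highest over the lowest level was 3.06-fold at the median of the 31 genes tested, beside 4.60-fold for all 18698. Ildr1, which shares the tricellular corner with Lsr, ranged 1.74-fold, F11r 1.91-fold and Ocln (occludin) 2.09-fold. In all, 7 of 31 genes ranged over 16-fold (22.6%, beside 21.6% of all genes tested) and 2 of 31 under 2-fold (6.45%, beside 12.2%). The widest ranges were those of Cldn10 (508-fold), Cldn6 (112-fold), Cldn2 (62.9-fold) and Jam2 (28.9-fold), followed by Cldn4 (23.1-fold), Jam3 (20.6-fold) and Cldn15 (18.6-fold). Cldn6 reached 0 CPM in its lowest library, so its fold depends on the prior count. The SD within a group, in log2 CPM, was 0.402 at the median of these genes and 0.458 for all genes tested.

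**Figure D1:**
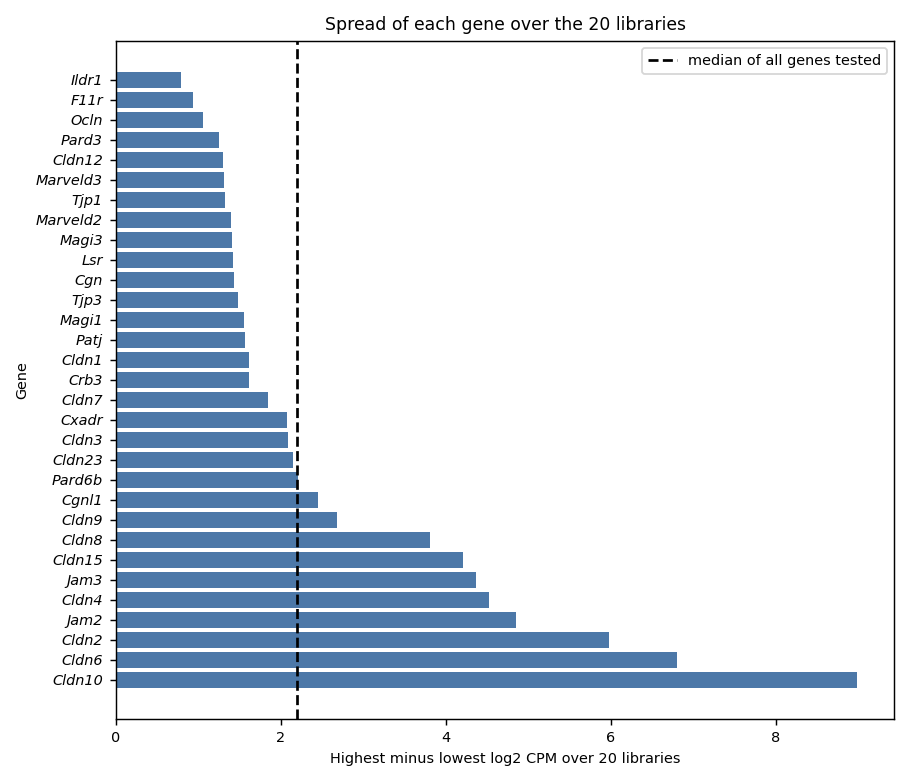
Highest minus lowest log2 CPM over the 20 libraries for each of the 31 genes tested (bars), with the median of all genes tested as a dashed line. Cldn10 and Cldn6 have the longest bars, and Ildr1 and F11r the shortest.

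The PyMT organoids of day 6 and the Neu-NT sections each held a library unlike its group. Over the 31 genes, PyMT day 6 replicate 3 differed from the other libraries of its group by 1.11 log2 units on average and from PyMT sections by 0.418. It had 100.1 CPM of Cldn2, 94.2 of Cldn10, 3.92 of Jam3 and 69.6 of Cxadr, where the other day 6 libraries and the undated ones had 1.95 to 11.7, 0.38 to 8.08, 0.33 to 0.98 and 170 to 294 CPM. PyMT day 6 replicate 2 differed from its group by 1.02 and from the undated group by 0.782. Neu-NT replicate 3 differed from its group by 0.809 and from PyMT organoids at day 0 by 0.637, with 74.3 CPM of Cldn8 against 5.22 and 5.23 in the other Neu-NT sections. Comparisons are also given without PyMT day 6 replicate 3 and Neu-NT replicate 3, called below the 2 libraries that stood apart. PyMT day 6 replicate 2 was kept. The 2 were picked with these same data seen, so calls made without them are not separate support. Neither is in the Neu-NDL, WT, PyMT section or day 0 groups. Comparisons among those groups keep all their libraries when the 2 are left out, and only the shared fit changes.

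**Figure D2:**
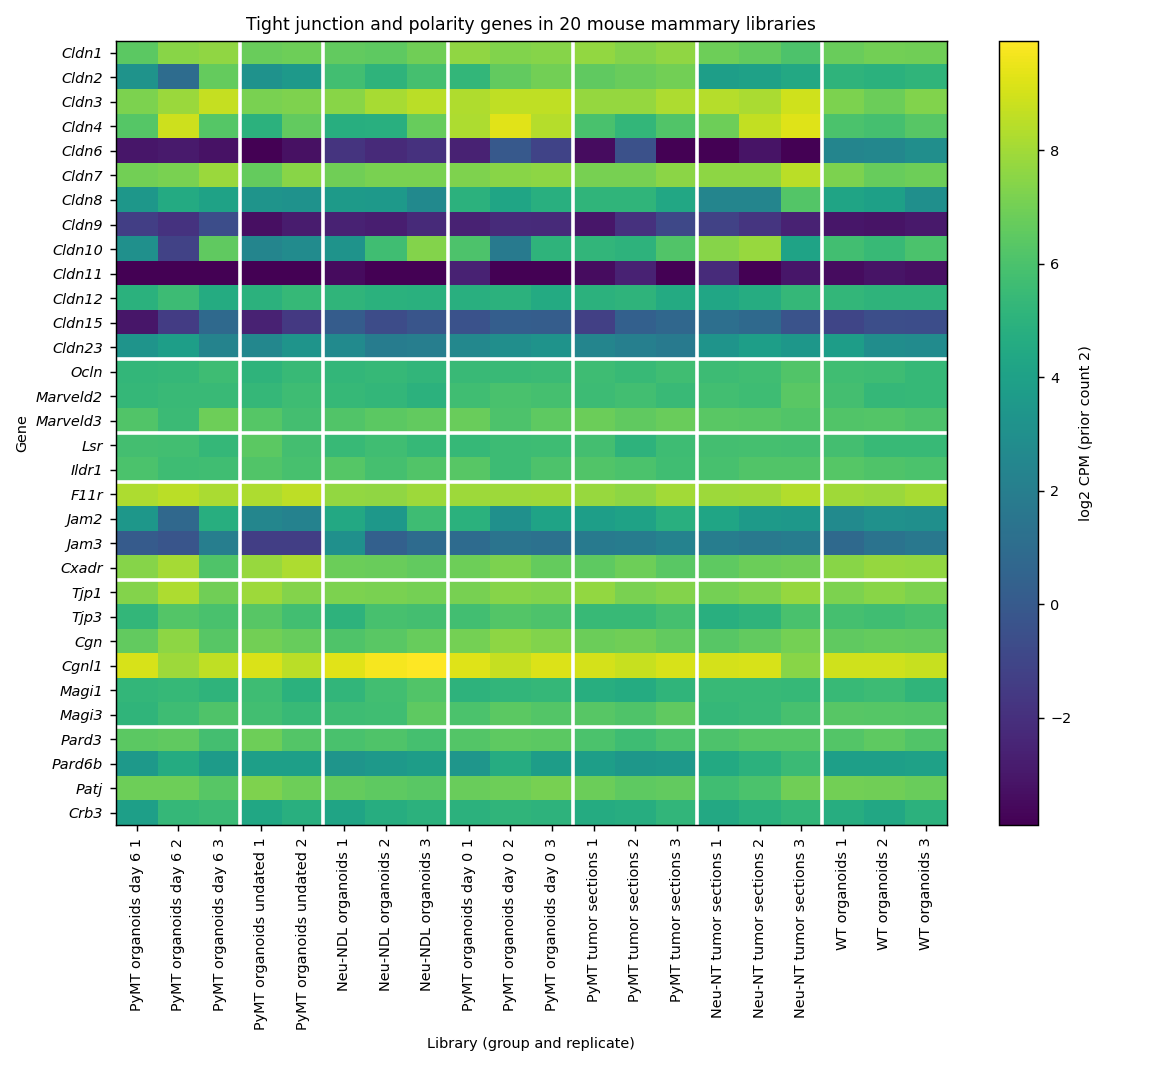
Level of each of the 32 genes (rows, grouped by role) in each of the 20 libraries (columns, WT organoids last) as log2 CPM with a prior count of 2. Cldn6 is brightest in WT organoids, and Cldn2 and Cldn10 differ between libraries of the same group.

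Against WT organoids, each of the 4 tumor groups had Cldn6 called lower, and no other gene of the list was called in more than 1 of those comparisons. Calls were made with the quasi-likelihood test of edgeR at a Benjamini-Hochberg adjusted p under 0.05 over all 18698 genes. In 6 day PyMT organoids 1 of 31 genes was called, beside 3.89% of all genes. In Neu-NDL organoids it was 1 of 31 beside 4.52%, in PyMT sections 1 of 31 beside 12.5%, and in Neu-NT sections 5 of 31 beside 19.0% (4 higher beside 10.5% and 1 lower beside 8.47%). The members' share was below the share of all genes in each of the 4. The median log2 fold change of the 31 was 0.02, -0.16, 0.06 and 0.17 in that order, beside 0.01, 0.02, 0.03 and 0.03 for all genes. Without the 2 libraries that stood apart, 6, 3, 8 and 11 of the 31 genes were called, beside 16.5%, 14.5%, 27.0% and 29.0% of all genes. The members' share was then above that of all genes in 6 day PyMT organoids and Neu-NT sections and below it in the others, and these differences were not tested. In 6 day PyMT organoids 1 gene had all libraries above and 2 all below the WT organoids, beside 6.36% and 9.87% of all genes. In Neu-NDL organoids these were 4 and 7 beside 17.0% and 19.2%, in PyMT sections 7 and 5 beside 23.2% and 23.1%, and in Neu-NT sections 8 and 4 beside 19.4% and 21.3%.

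**Figure D3:**
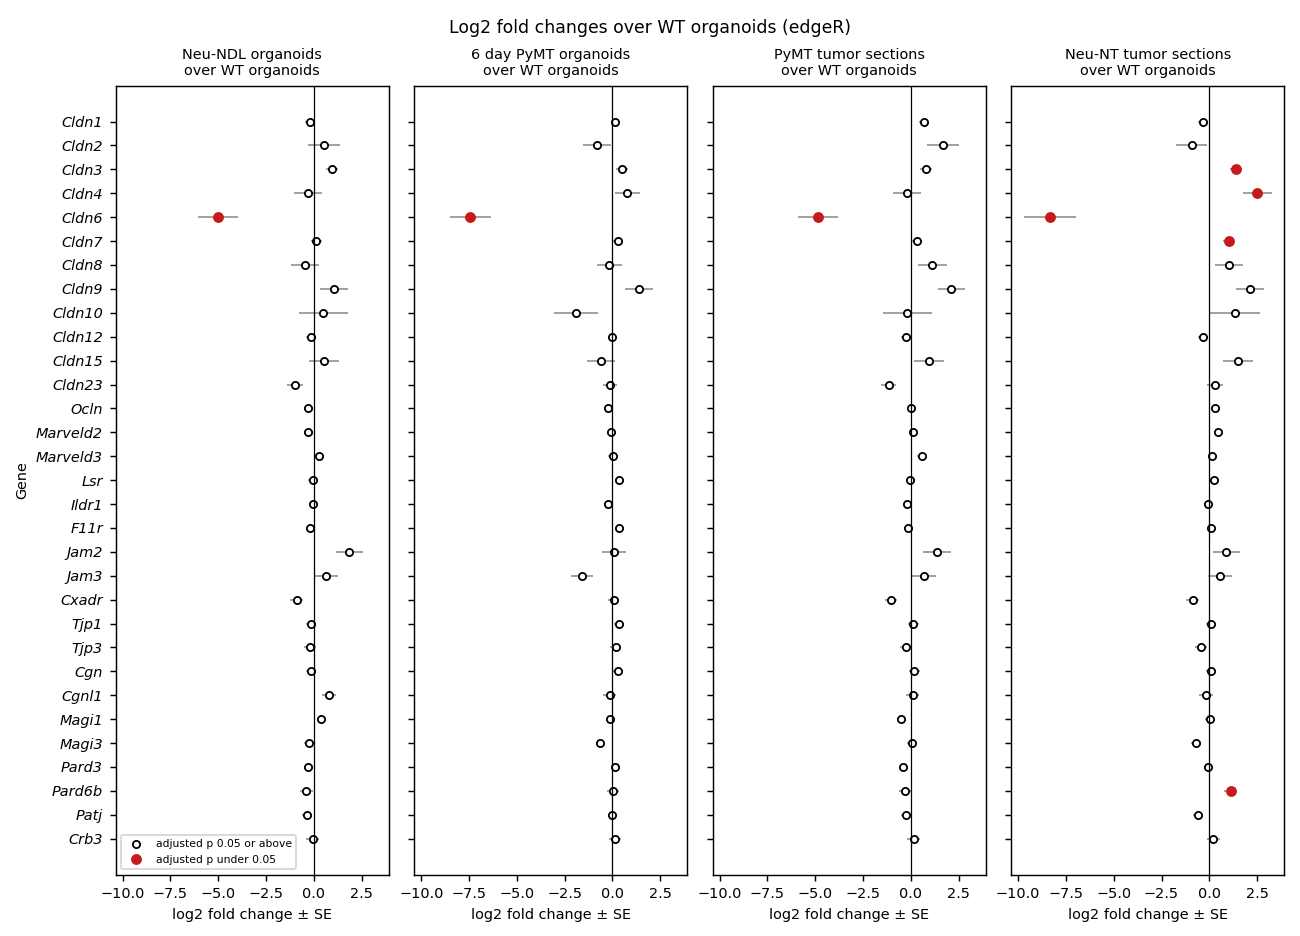
Log2 fold changes over WT organoids with their SE (bars) for 31 genes in 4 comparisons; filled points have an adjusted p under 0.05. Cldn6 lies between -8.33 and -4.86 in all 4, and the other filled points are Cldn3, Cldn4, Cldn7 and Pard6b in Neu-NT sections.

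Cldn6 encodes claudin 6, known in the mouse as a claudin of embryonic epithelia. It had 0.05, 0.07 and 0.04 CPM in PyMT day 6 organoids, 0.00 and 0.04 CPM in the undated ones and 0.10, 0.91 and 0.39 CPM in day 0 PyMT organoids. Neu-NDL organoids had 0.22, 0.14 and 0.19 CPM. PyMT sections had 0.03, 0.65 and 0.00 CPM and Neu-NT sections 0.00, 0.05 and 0.00 CPM, against 5.24, 5.68 and 7.47 CPM in WT organoids. No tumor library reached the lowest WT organoid. The Neu-NT sections held 1 count of Cldn6 and the WT organoids 712 counts, a ratio of WT over Neu-NT levels of 409.7 with an exact 95% interval of 73.3 to 16200 for counting error. For PyMT sections (14 counts) the ratio of WT over tumor levels was 35.6 (21.1 to 65.4), for Neu-NDL organoids (24 counts) 31.8 (21.2 to 50), and for 6 day PyMT organoids (5 counts) 157.3 (67.1 to 486). Reads without molecular identifiers are not independent molecules, so these intervals cover counting error only.

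The fitted log2 fold change of Cldn6 was -7.42 ± 1.06 in 6 day PyMT organoids (SE; edgeR adjusted p = 0.00201), -5.01 ± 1.04 in Neu-NDL organoids (0.0177), -4.86 ± 1.06 in PyMT sections (0.0129) and -8.33 ± 1.38 in Neu-NT sections (0.00133). The call for Neu-NDL was lost without any 1 WT organoid, at an adjusted p of 0.0506 to 0.063, and without Neu-NDL replicate 2 (0.0728) or 3 (0.0709). That for PyMT sections was lost without PyMT section 1 (0.0537). PyMT section 2 held 13 of the 14 counts in that group, and without it the log2 fold change was -8.29 (0.00467). Of 12 basal and myoepithelial markers, 7 were called lower and 5 were not called in each of the 4 comparisons. Their fold changes were negative for 9 of 12 in 6 day PyMT organoids, 12 of 12 in Neu-NDL organoids and in PyMT sections, and 11 of 12 in Neu-NT sections. Their summed level was 113.5 to 7478 CPM in 6 day PyMT organoids, 134 to 604 CPM in Neu-NDL organoids, 97.2 to 336.5 CPM in PyMT sections and 112 to 2918 CPM in Neu-NT sections, against 2794 to 3571 CPM in WT organoids. The mean log2 CPM of the 12 markers was 2.54 to 4.47 in day 6 PyMT organoids, 4.43 and 4.45 in the undated ones, 2.96 to 3.79 in Neu-NDL organoids, 2.35 to 3.80 in PyMT sections and 2.10 to 5.25 in Neu-NT sections, against 6.86 to 7.14 in WT organoids. By that mean, no library of these tumor groups lay within the WT range, although 2 sums did not fall below it (7478 CPM in PyMT day 6 replicate 2 and 2918 CPM in Neu-NT replicate 3). The part of these markers in the level of Cldn6 was not tested. Cldn9, convergent with Cldn6 on chromosome 17 with 137 bases between the genes, had few counts, at 0.03 to 0.58 CPM in the tumor libraries and 0.04 to 0.06 CPM in WT organoids. Its log2 fold change in Neu-NT sections was 2.14 ± 0.73, just outside the threshold (edgeR adjusted p = 0.0506), and it was called there with RLE size factors (0.0475) and without the 2 libraries that stood apart (2.48, 0.0188). In PyMT sections it was 2.12 ± 0.73 (0.0647), called without the 2 libraries that stood apart (0.0335), which are in neither group compared there. In 6 day PyMT organoids it was 1.40 ± 0.73 (0.291), called with the day 6 group alone (2.75, 0.0488).

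In Neu-NT sections 4 genes were called higher than in WT organoids, the claudins Cldn3, Cldn4 and Cldn7 and the polarity protein Pard6b, which links Cdc42 to atypical protein kinase C. Cldn3 had 333, 289 and 484 CPM in Neu-NT sections, against 149, 114 and 157 CPM in WT organoids, which do not overlap. Its log2 fold change was 1.40 ± 0.33 (SE; edgeR adjusted p = 0.00985, 0.0504 without WT organoid 2). Its libraries lay above all WT libraries also in Neu-NDL organoids (177, 278 and 360 CPM) and PyMT sections (211, 216 and 303.5 CPM), where it was not called (0.96 ± 0.33, adjusted p = 0.104, and 0.80 ± 0.33, 0.115). It was called in both without the 2 libraries that stood apart (0.0161 and 0.0267), which are in none of the groups compared there, so only the shared fit changed. It was also called in Neu-NDL organoids with DESeq2 (0.0376) and in PyMT sections with only the libraries compared (0.02). The rise of Cldn3 was thus not shown to differ between Neu-NT sections and the Neu-NDL organoids or PyMT sections. Cldn4 had 118, 409 and 614 CPM in Neu-NT sections, against 63.5, 57.4 and 79.5 CPM in WT organoids. Its log2 fold change was 2.51 ± 0.77 (edgeR adjusted p = 0.0321), and Neu-NT replicate 1 lay nearest to the WT libraries. Neu-NDL organoids had 27.0, 28.7 and 104.5 CPM of Cldn4, on both sides of the WT range.

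Cldn7 had 194, 194 and 367 CPM in Neu-NT sections, against 145.5, 106 and 119 CPM in WT organoids, a log2 fold change of 1.03 ± 0.29 (edgeR adjusted p = 0.0208). The other tumor groups had 127, 140.2 and 235 CPM in day 6 and 102 and 177 CPM in undated PyMT organoids, 122, 142 and 143 CPM in Neu-NDL organoids, 153, 177.5 and 190.3 CPM in day 0 PyMT organoids and 136, 136 and 184 CPM in PyMT sections, whose ranges overlap that of the WT libraries except at day 0. Pard6b had 22.4, 31.3 and 46.4 CPM in Neu-NT sections, against 14.95, 14.7 and 16.4 CPM in WT organoids, a log2 fold change of 1.12 ± 0.34 (edgeR adjusted p = 0.0303). Elsewhere it had 12.1, 24.3 and 13.0 CPM in day 6 and 14.7 and 14.9 CPM in undated PyMT organoids, 9.97, 11.3 and 13.8 CPM in Neu-NDL organoids and 10.2, 25.5 and 13.7 CPM in day 0 PyMT organoids. Its Neu-NDL and PyMT section libraries lay below the WT ones, with no call (-0.39 and -0.30 on the log2 scale, adjusted p = 0.558 and 0.573). In Cldn4, Cldn7 and Pard6b Neu-NT replicate 3, which stood apart, was the highest. Without it the adjusted p was 0.088 for Cldn4 (log2 fold change 1.98), 0.091 for Cldn7 (0.65) and 0.108 for Pard6b (0.81). Without both libraries that stood apart, Cldn7 kept its call (0.0279), and Cldn4 (0.0604) and Pard6b (0.0865) lost it. With only the libraries compared and replicate number as a block, Cldn4 (0.0625), Cldn7 (0.1) and Pard6b (0.0628) lost the call. Cldn7 lost it also without the block in that fit (0.0535), and Cldn4 with no filter (0.0809). Cldn4 and Pard6b lost the call also without any 1 WT organoid (0.0811 to 0.107 and 0.0744 to 0.0939) or without Neu-NT replicate 2 (0.063 and 0.0525), and Cldn7 without WT organoid 2 (0.0863) or 3 (0.0702). Neu-NT replicate 3 also had 1559 CPM of macrophage markers and 11810 CPM of epithelial markers in sum, against 630 to 721 and 5059 to 5858 CPM in the other Neu-NT sections. Their part in these results was not tested. Of 8 pan-epithelial markers none was called by edgeR in any of the 4 comparisons (at an unadjusted p under 0.05, 4, 1, 0 and 1 were, in the order above).

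**Figure D4:**
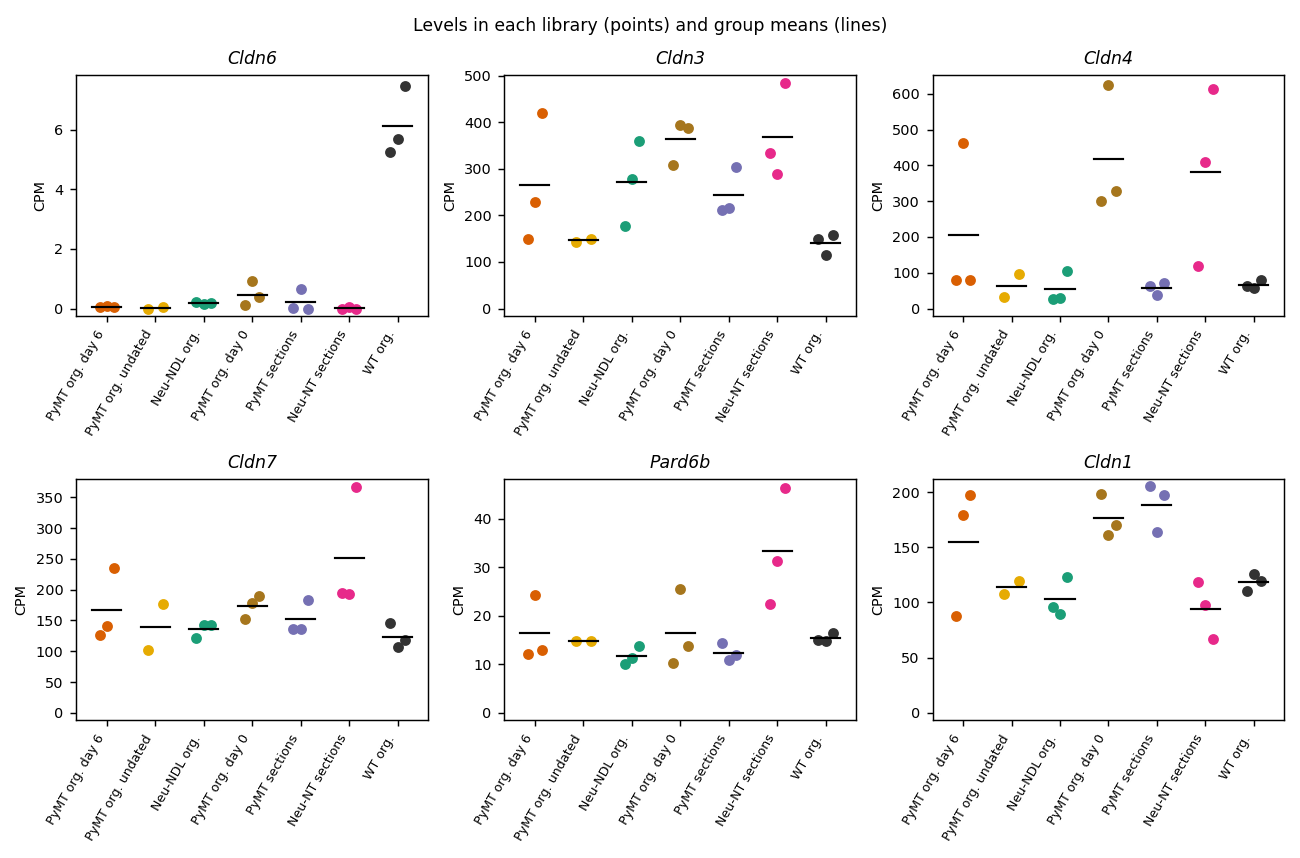
CPM of 6 genes in each library (points) with group means (lines), PyMT organoids leftmost and WT organoids last. The WT points of Cldn6 are above all others, and the Neu-NT points of Cldn3, Cldn4, Cldn7 and Pard6b lie above the WT points.

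The 2 kinds of tumor section differed in 4 of the 31 genes (12.9%), beside 9.7% of all genes, 1 of them higher in PyMT sections (beside 4.57%) and 3 lower (beside 5.13%). Cldn1 was the 1 gene higher in PyMT than Neu-NT sections, at 205, 164 and 198 CPM in PyMT sections and 118, 98.0 and 67.1 CPM in Neu-NT sections (log2 fold change 1.00 ± 0.26, edgeR adjusted p = 0.0233). Lower in PyMT sections were Cldn4 at 63.3, 38.4 and 72.3 CPM, against 118, 409 and 614 CPM in Neu-NT sections (-2.71 ± 0.77, 0.0378), and Pard6b at 14.4, 10.8 and 12.0 CPM, against 22.4, 31.3 and 46.4 CPM (-1.42 ± 0.34, 0.0176). Cldn23 was also lower, with 5.21, 4.17 and 3.25 CPM in PyMT sections and 9.38, 14.6 and 10.7 CPM in Neu-NT sections (-1.46 ± 0.41, 0.0374). All 4 sets of libraries were separate between the models. Leaving out 1 library at a time, Cldn4 kept its call only without Neu-NT replicate 1 (adjusted p up to 0.112 otherwise) and Cldn23 only without Neu-NT replicate 3 (up to 0.128). Cldn1 kept it without PyMT section 2 or Neu-NT replicate 1 (up to 0.0736 otherwise), and Pard6b lost it without PyMT section 2 (0.0575) or 3 (0.061). Without the 2 libraries that stood apart all 4 remained, and Cldn2, Cldn8, Magi3 and Patj were also called (8 of 31, beside 23.2% of all genes). With only the section libraries in the fit, all 4 were lost (adjusted p = 0.0881 for Cldn1, 0.0718 for Cldn4, 0.0668 for Pard6b and 0.0752 for Cldn23), and the 1 gene called was Cldn2 (0.0167).

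Cldn2, the cation pore claudin, had separate libraries in the 2 kinds of section and was not called. It had 94.7, 108 and 125 CPM in PyMT sections, against 14.6, 16.4 and 22.2 CPM in Neu-NT sections (log2 fold change 2.62 ± 0.87, edgeR adjusted p = 0.0665). WT organoids had 34.5, 31.0 and 35.4 CPM. With only the section libraries in the fit it was called. Without the 2 libraries that stood apart, the adjusted p of the difference between the sections was 0.00268 and the log2 fold change 2.80.

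Between the 6 day cultures, PyMT against Neu-NDL organoids, 2 of 31 genes were called (6.45%, beside 7.12% of all genes). F11r, whose protein helps recruit the Par complex, had 299, 363 and 288 CPM in day 6 and 302 and 371 CPM in undated PyMT organoids, against 206, 201 and 242 CPM in Neu-NDL organoids. Its log2 fold change was 0.59 ± 0.15 (edgeR adjusted p = 0.0283), with no overlap between libraries. F11r had 243, 235 and 250.5 CPM in day 0 PyMT organoids, 224, 194 and 254 CPM in PyMT sections and 235, 247 and 322 CPM in Neu-NT sections, against 250, 233 and 275 CPM in WT organoids. Jam3 had 0.98, 0.79 and 3.92 CPM in day 6 and 0.34 and 0.33 CPM in undated PyMT organoids, against 8.16, 1.18 and 1.85 CPM in Neu-NDL organoids, and these overlap. Its log2 fold change was -2.22 ± 0.58 (edgeR adjusted p = 0.0327), and the value was -0.93 without Neu-NDL replicate 1 (adjusted p = 0.264). It lost the call also without PyMT day 6 replicate 1 (0.0542) or either undated library (0.111 and 0.101), and the value was -0.98 with the day 6 group alone (0.399). F11r lost its call without Neu-NDL replicate 1 (0.0716) or 2 (0.0981) or either undated library (0.0593 and 0.0888). With only the libraries compared in the fit, neither gene was called (0.172 for F11r and 0.207 for Jam3). Exons of Jam3 overlap those of Gm48796 on the other strand over 36.2% of their length, and the strand setting is not given, so these reads cannot be told apart. Without the 2 libraries that stood apart, 13 of 31 genes were called, beside 24.3% of all genes, Jam3 and F11r among them.

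Between 6 day and day 0 PyMT organoids, 1 of 31 genes was called, beside 8.22% of all genes, and it was again Cldn6 (log2 fold change -3.72 ± 1.06, edgeR adjusted p = 0.0427). Leaving out 1 library at a time, the call was kept only without PyMT day 6 replicate 3 (0.0298, up to 0.184 otherwise). It was also lost in the fit with replicate number as a block (0.118) and with only the libraries compared (0.107). The day 6 group alone (-3.01, 0.229), the undated group alone (0.0776) and no filter (0.0533) lost it too. It was kept with DESeq2 (0.0123), RLE size factors (0.0427) and without the 2 libraries that stood apart (0.0284). In the day 6 and day 0 libraries alone, no member was called with or without the block. The titles do not state that equal numbers were paired. Cldn3 had 150, 228 and 419.7 CPM in day 6 and 144 and 149.9 CPM in undated PyMT organoids, against 308.5, 395 and 388 CPM at day 0 (-0.88 ± 0.29, adjusted p = 0.0693). Cldn4 had 78.3, 462 and 78.5 CPM and 32.1 and 96.0 CPM, against 301.5, 624 and 329.9 CPM at day 0 (-1.86 ± 0.65, 0.0817). Without the 2 libraries that stood apart, 11 of 31 genes were called, beside 30.7% of all genes, with Cldn2 (log2 fold change -3.50), Cldn3 and Cxadr among them.

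Day 0 PyMT organoids and PyMT sections differed in none of the 31 genes by edgeR, beside 0.444% of all genes. At an unadjusted p under 0.05 there were 2, and DESeq2 called 1, Cldn4. Cldn4 had 301.5, 624 and 329.9 CPM at day 0 and 63.3, 38.4 and 72.3 CPM in the sections, which do not overlap (log2 fold change 2.85 ± 0.78, edgeR adjusted p = 0.213).

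The make-up of the claudin transcripts shows these differences side by side. Summed over the 13 claudins, the level was 866.5 to 1911 TPM in day 6 and 593 and 884 TPM in undated PyMT organoids, and 954.5 to 1839 TPM in Neu-NDL organoids. It was 2028 to 2860 TPM in day 0 PyMT organoids, 1354 to 1544 TPM in PyMT sections, 1759 to 2547 TPM in Neu-NT sections and 836 to 977 TPM in WT organoids. Cldn3 held 31.5 to 59.2% of the sum over all libraries. Cldn4 held 6.96 to 44.3% in day 6 PyMT organoids, 7.82 and 16.9% in the undated ones, 4.23 to 10.7% in Neu-NDL organoids, 26.1 to 41.3% in day 0 PyMT organoids, 5.75 to 9.1% in PyMT sections, 12.1 to 34.3% in Neu-NT sections and 11.3 to 14.1% in WT organoids. These sums were not tested.

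**Figure D5:**
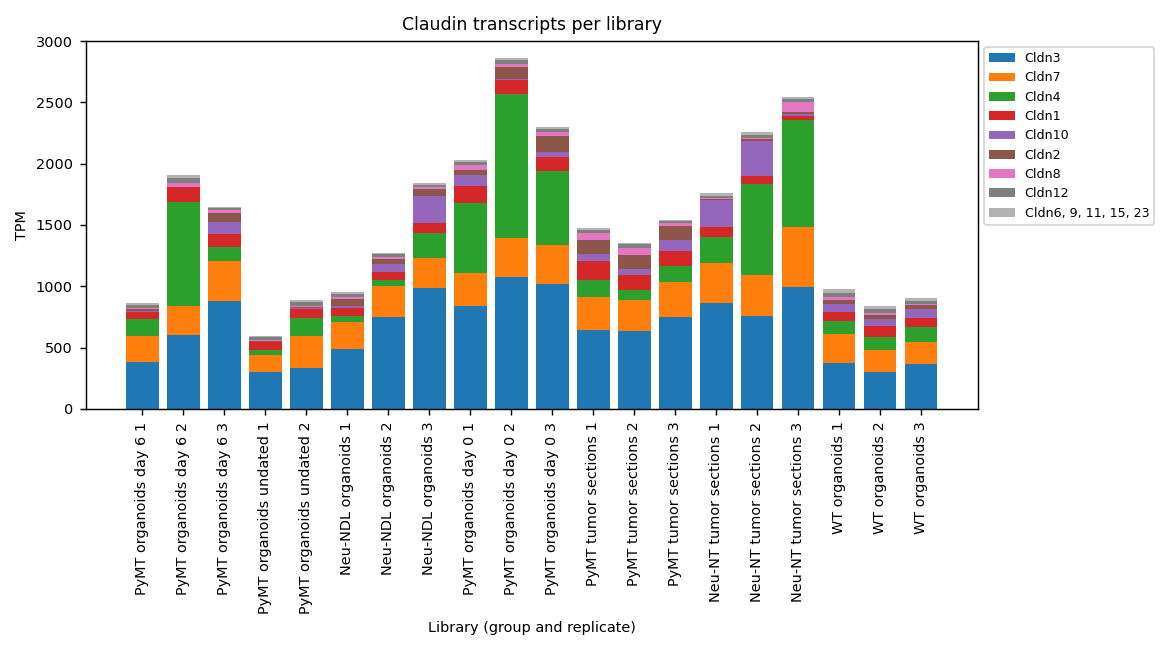
TPM of the claudins stacked for each library, PyMT organoids of 6 days at the left and WT organoids at the right. Neu-NT sections sum to 1759 to 2547 TPM and WT organoids to 836 to 977 TPM.

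Other members were described by the rule without a call. Cxadr, the coxsackievirus and adenovirus receptor, had 91.8, 119 and 82.7 CPM in PyMT sections, 89.3, 112 and 124 CPM in Neu-NT sections and 113, 107 and 98.2 CPM in Neu-NDL organoids, against 175, 218 and 205 CPM in WT organoids. None of these overlap with WT, and none was called in the fit of all libraries (log2 fold changes -1.03, -0.88 and -0.91, edgeR adjusted p = 0.0505, 0.0707 and 0.118). All 3 were called lower with only the libraries compared (0.00481, 0.0188 and 0.0137) and without the 2 libraries that stood apart (0.00268, 0.00698 and 0.0113). Of these groups, only the Neu-NT sections hold a library that stood apart. Day 0 PyMT organoids had 116.5, 149 and 102 CPM of Cxadr. Jam2, an adhesion molecule also made by endothelium, had 21.9, 11.1 and 50.2 CPM in Neu-NDL organoids, 14.7, 17.0 and 27.8 CPM in PyMT sections and 19.1, 12.6 and 11.03 CPM in Neu-NT sections, against 6.51, 8.41 and 8.02 CPM in WT organoids. Its libraries did not overlap with WT in these 3 groups, and it was not called (edgeR adjusted p 0.148, 0.206 and 0.4). PyMT organoids had 10.7, 1.67 and 26.9 CPM of Jam2 at day 6, 5.43 and 4.57 CPM undated and 30.9, 8.29 and 17.6 CPM at day 0. Endothelial markers summed to 6.06 to 48.8 CPM in Neu-NDL organoids, 118.5 to 178 CPM in PyMT sections and 86.5 to 144 CPM in Neu-NT sections, against 13.2 to 61.4 CPM in WT organoids, and their part in the level of Jam2 was not tested. Cldn10 had 8.08, 0.38 and 94.2 CPM in day 6 PyMT organoids, 9.13, 52.5 and 164.5 CPM in Neu-NDL organoids and 171, 225 and 17.5 CPM in Neu-NT sections, against 53.2, 43.1 and 64.7 CPM in WT organoids, and in these 3 tumor groups the libraries lay on both sides of the WT range. The undated PyMT organoids had 5.20 and 6.82 CPM of Cldn10, below every WT library. Cgnl1, which links the junction to actin and microtubules, had 643, 853 and 972 CPM in Neu-NDL organoids, against 483, 488 and 438 CPM in WT organoids (log2 fold change 0.81 ± 0.36, edgeR adjusted p = 0.21, and 0.0342 with only the libraries compared). Its other libraries had 537, 235 and 389 CPM in day 6 and 569 and 364 CPM in undated PyMT organoids, 599.7, 414 and 583 CPM at day 0, 519, 429.5 and 551 CPM in PyMT sections and 533.5, 546 and 178 CPM in Neu-NT sections.

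The plaque scaffolds Tjp1, Tjp3, Cgn, Magi1 and Magi3, the polarity proteins Pard3, Patj and Crb3, the occludin-type proteins and the tricellular proteins were called in none of the 8 comparisons in the fit of all 20 libraries. Other fits called some of them. For example, without the 2 libraries that stood apart, Magi3, Patj and Tjp3 were called lower in Neu-NT sections than in WT organoids, and Tjp1, Pard3 and Patj were called between 6 day PyMT and Neu-NDL organoids. Tjp1 (ZO-1) ranged from 121.5 to 304 CPM over the 20 libraries, Pard3 from 49.4 to 118 CPM and Ocln from 34.8 to 72.6 CPM. Exons of Lsr overlap opposite-strand genes over 44.7% of their length, and those of Cxadr over 9.46%, so part of their reads cannot be told apart from those genes. A missing call does not show that levels did not differ.

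Related genes outside the list were read from the same fit. Of 20 other polarity genes tested, 1 was called higher and 2 lower in Neu-NT sections than in WT organoids: Mpp5 (Pals1), which joins Crumbs to Patj, rose to 132, 141 and 62.9 CPM in Neu-NT sections against 55.2, 66.1 and 59.97 CPM in WT organoids (log2 fold change 0.89, edgeR adjusted p = 0.0235), and Prkcz and Lin7b fell (-1.08 and -1.25). In PyMT sections 1 rose and 1 fell, Llgl2, a basolateral polarity protein (1.37, adjusted p = 0.021), and Pard6g (-1.94). In Neu-NDL organoids Prkci, the atypical protein kinase C that Pard6 proteins bind, fell (-0.85, adjusted p = 0.016). It was the 1 call of 20 (5.0%, beside 4.52% of all genes). In 6 day PyMT organoids none of 20 was called, beside 3.89% of all genes, with 3 at an unadjusted p under 0.05.

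Of 21 other tight junction genes tested, 1 was called higher and 3 lower in Neu-NT sections (19.0%, beside 19.0% of all genes). The share was 9.52% in PyMT sections, beside 12.5%, and none was called in Neu-NDL or 6 day PyMT organoids, beside 4.52% and 3.89%. Cldn22 had 7.67, 7.03 and 0.52 CPM in Neu-NT sections, against 0.10, 0.04 and 0.09 CPM in WT organoids (log2 fold change 5.95, edgeR adjusted p = 0.00293), and Myo9a, Amot and Cask fell (-0.88, -0.77 and -0.71). In PyMT sections Arhgef18 rose (0.66) and Arhgef2, which binds cingulin at junctions, fell (-0.67). Of 13 adherens junction genes, Nectin3, Ctnnd1 and Jup rose in Neu-NT sections (23.1%, beside 19.0% of all genes). Of the same 13, 1 was called higher in Neu-NDL organoids and 1 in 6 day PyMT organoids (7.69% each, beside 4.52% and 3.89%). None was called in PyMT sections, beside 12.5%. Jup (plakoglobin) had 465, 509.9 and 8525 CPM in Neu-NT sections, against 376, 345 and 341 CPM in WT organoids, so that its log2 fold change of 3.16 comes with 1 library far above the others. Nectin3 had 41.3, 43.4 and 13.8 CPM in Neu-NT sections, against 5.47, 6.38 and 6.52 CPM in WT organoids (2.42, adjusted p = 0.00155). Of 7 mesenchymal regulators, Tcf4 fell in Neu-NT sections (-2.04), Snai1 in PyMT sections (-2.02) and Twist2 in 6 day PyMT organoids (-3.17). Each was the 1 call of 7 (14.3%), beside 19.0%, 12.5% and 3.89% of all genes in that order. None was called in Neu-NDL organoids, beside 4.52% (0 at an unadjusted p under 0.05). Of 12 epithelial regulators, 1 was called in each kind of section (8.33%, beside 12.5% of all genes in PyMT and 19.0% in Neu-NT sections). Ehf rose in PyMT sections (1.88, adjusted p = 0.0263), where 9 of the 12 fold changes were negative. Esrp1, a splicing factor of epithelia, fell in Neu-NT sections (-0.83, 0.0453), where 7 of the 12 were negative. None was called in Neu-NDL or 6 day PyMT organoids, beside 4.52% and 3.89% of all genes, and 11 and 4 of the 12 were negative there.

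Depth ran from 17478357 to 48341438 gene counts, with 5.60 to 12.3% of counted reads on no gene and 1.23 to 6.05% of gene counts mitochondrial. Macrophage markers were higher in both kinds of section than in WT organoids (7 of 9 called in PyMT sections, 8 of 9 in Neu-NT sections), summing to 479 to 858 CPM and 630 to 1559 CPM against 112 to 160 CPM. In Neu-NDL organoids 3 of 9 of these markers were called higher, summing to 238.9 to 626.5 CPM, and in 6 day PyMT organoids 0 of 9 were called. Their part in any result above was not tested.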

How the data were processed

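The deposited values are raw counts of reads per gene, 1 table per library with 45318 Ensembl gene IDs. The submitters' processing notes name CASAVA, FastQC, STAR, HTSeq, DESeq2 and the build mm10, with no role or version. The annotation release and the strand setting are not given in the sources used here. Names, exon lengths and positions came from GENCODE M21 (44671 IDs matched). Reads on no gene (5.60 to 12.3%) or several genes (4.68 to 7.39%) stayed out of library sizes. A single edgeR 4.0.16 quasi-likelihood fit in R 4.3.3 over the 20 libraries in 7 groups (TMM, filterByExpr, robust; 13 residual degrees of freedom; common dispersion 0.193) tested 18698 genes in 8 comparisons. For 6 day PyMT organoids, the day 6 mean and the undated mean counted equally. CPM use TMM-adjusted library sizes, log2 CPM a prior count of 2, and TPM exon lengths. SE were taken from the log2 fold change and its F statistic. The fit was tested on simulated counts.

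The members and lists were chosen with earlier results of these data known. Values in every library are given for members called against WT organoids and the 5 with the highest TPM in WT organoids. They are also given for members whose libraries did not overlap with WT in at least 3 of the 4 comparisons. For Cxadr, most 6 day PyMT organoids are given as a range. From each other list, up to 4 called genes are named per comparison with WT organoids. The adherens junction calls in Neu-NDL and 6 day PyMT organoids are only counted. Values chosen after being seen are those of Cldn2, Cldn8, Cldn9 and Cldn10. Same-numbered day 6 and day 0 libraries deviated together over genes (r = 0.315, 0.491 and 0.35), so that comparison was also fitted with a replicate block on those libraries alone, an alternative chosen after seeing the data. The titles state no pairing, and r reached 0.3 between PyMT day 6 and Neu-NDL organoids (replicate 2). Other alternatives were RLE size factors, no filter, DESeq2 1.42.0, only the libraries compared, and leaving out libraries. The 2 libraries that stood apart were also picked with the data seen.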

Additional observations from a re-analysis of the deposited data

How the results depend on the processing

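Counts are given as members called, then all genes called, and the totals tested differ between settings. With no filter 32 members were tested, and 29 or 30 in fits of only the libraries compared, with or without the block. The other settings of this paragraph tested 31. All genes tested ran from 15618 to 31942, so counts from different settings are not shares of the same total. With DESeq2 they were 2 and 2075 for Neu-NDL organoids against WT, 1779 genes for 6 day PyMT organoids against WT, 3 and 3669 for PyMT sections against WT, 5 and 2620 for 6 day PyMT against Neu-NDL organoids, 3021 genes between the sections, 5 and 2940 for 6 day against day 0 PyMT organoids, and 1 and 215 for day 0 organoids against PyMT sections. With only the libraries compared they were, in the same order where they moved by over 1.5 times, 3 and 1907, 9 and 4870 (PyMT sections), 0 and 11 (PyMT against Neu-NDL), 1 (Cldn2, not called with all libraries) and 327 (sections), 0 and 66 (6 day against day 0), and 1 and 191 (day 0 against sections). With the replicate block, whose numbers are not stated to pair samples, they were 399 genes (Neu-NDL), 242 genes (6 day PyMT), 9 and 4052 (PyMT sections), 3 and 1702 (Neu-NT sections), 0 and 0 (PyMT against Neu-NDL), 0 and 0 (sections) and 0 and 48 (6 day against day 0). In the day 6 and day 0 libraries alone they were 0 and 4 without the block and 0 and 0 with it. Without the 2 libraries that stood apart they were 3 and 2699, 6 and 3071, 8 and 5024, 11 and 5384 for the 4 comparisons with WT (Neu-NDL, 6 day PyMT, PyMT sections, Neu-NT), then 13 and 4514, 8 and 4317, 11 and 5701, and 243 genes for the rest. With no filter they were 1 and 834 (PyMT against Neu-NDL), 2 members (sections) and 0 and 896 (6 day against day 0). With day 6 alone they were 2 members (6 day PyMT against WT), 0 and 131 (PyMT against Neu-NDL) and 0 and 117 (against day 0), and with undated alone 88 genes, 1 and 645, and 2 members. The cause was not tested.

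Leaving out 1 library in turn gave 0 to 2 members and 115 to 1291 genes for Neu-NDL against WT, 1 to 4 and 81 to 2025 for 6 day PyMT, 1 and 525 to 1729 for PyMT sections, 1 to 6 and 1830 to 4060 for Neu-NT sections, 0 to 8 and 173 to 3109 for PyMT against Neu-NDL, 0 to 5 and 721 to 3095 between the sections, 0 to 10 and 232 to 4527 for 6 day against day 0, and 0 and 47 to 74 for day 0 against sections. The share of calls that were higher was 48.3% with DESeq2 beside 36.0% for 6 day PyMT organoids, and 69.8% beside 96.4% for day 0 organoids against sections.

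Changes of sign were examined for the members described by the rule and for the other calls, not for the remaining members. Log2 fold changes that turned sign among them were all of members not called in that comparison. In 6 day PyMT organoids against WT these were Cldn4 (-0.06, undated alone), Jam2 (-0.02 with the block, -0.434 without the libraries apart, -0.612 undated alone), Pard6b (-0.001 with no filter, -0.051 undated alone) and Cxadr (-0.136 with the block, -0.243 day 6 alone). In Neu-NT sections they were Cgnl1 (0.204) and F11r (-0.063), between sections Cgnl1 (-0.127), and against day 0 Pard6b (0.022), all without the libraries apart. Pard6b was at 0.02 with the block on the day 6 and day 0 libraries alone. Leaving out 1 library, the values ran from -1.233 to 0.009 for Cldn4 in Neu-NDL organoids. In 6 day PyMT organoids they ran from -0.31 to 0.003 for Cgnl1, -0.465 to 0.352 for Jam2, -0.157 to 0.116 for Pard6b and -0.159 to 0.254 for Cxadr. In sections against WT they ran from -0.393 to 0.011 for Cldn4 (PyMT), -0.399 to 0.202 for Cgnl1 and -0.066 to 0.176 for F11r (Neu-NT). For Cldn7 in PyMT against Neu-NDL they ran from -0.053 to 0.34, for Cgnl1 between sections -0.111 to 0.49, for Pard6b against day 0 -0.32 to 0.389, and for Jam2 and Pard6b in day 0 organoids against sections -0.584 to 0.319 and -0.027 to 0.682. Depth limits Cldn6 and Cldn9, whose tumor libraries hold few counts.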
